A study of Mus musculus with 24 samples.

Results

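The 44 genes described here encode proteins of DNA replication and S phase, and their RNA was followed through 3 B cell populations of bone marrow from mice with 2 or 1 floxed Vhl alleles. They were chosen by function, with earlier results of these data known, as a list of gene symbols read from the count table. They make up 44 of its 24421 genes. All 44 passed the filter on low counts and are among the 12850 genes tested.

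Replication starts when the origin recognition complex, Cdc6 and Cdt1 load the MCM helicase onto DNA in G1. In S phase Cdc45 and the GINS complex switch the helicase on, and polymerases, a sliding clamp and its loader, nucleotide-making enzymes and histone chaperones follow the fork. In the B lineage, large pre-B cells divide rapidly after they have made an immunoglobulin heavy chain, whereas immature and mature B cells of the bone marrow are mostly resting. Vhl is the substrate-binding part of a ubiquitin ligase that marks the alpha subunits of hypoxia-inducible factors for destruction.

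The study compared mice with both Vhl alleles floxed (VHL flox/flox) with mice with 1 floxed and 1 wild-type allele (VHL flox/WT). Every mouse, controls included, also carried 1 copy of Mb1-Cre (MB1 Cre +/WT), a recombinase driven by the Cd79a locus in B lineage cells, so the comparison is of 2 floxed alleles against 1 in the presence of the recombinase. Each of 4 flox/flox and 4 flox/WT mice gave 3 libraries, a joint pro-B and pre-B sort (proBpreB), immature B cells and mature B cells, which makes 24 libraries in 6 groups of 4. The labels give neither the age of the mice nor the surface markers of the sorts. The 3 libraries of a mouse are not independent of each other.

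Libraries held 7850186 to 11863949 counts. Levels are CPM, a gene's count relative to the TMM-scaled total of its library, given in the order of replicates 1 to 4. Differences are log2 fold changes ± SE from edgeR's quasi-likelihood test, called at a Benjamini-Hochberg adjusted p under 0.05 over all genes tested. Vhl was at 7.97 to 15.1 CPM in proBpreB flox/flox libraries, against 23.0 to 27.9 CPM in flox/WT libraries. In immature cells it was at 3.07 to 8.16 CPM in flox/flox, against 26.7 to 47.9 CPM in flox/WT libraries, and in mature cells at 5.39 to 9.79 CPM, against 26.3 to 32.4 CPM. Markers of the labels were found in the proBpreB and mature libraries, and sums of marker lists in immature libraries are given below. Genes of other cells were found as well. In mature libraries 12 neutrophil and monocyte genes summed to 12408 to 20192 CPM in flox/flox and 11267 to 17684.5 CPM in flox/WT. Igll1, part of the surrogate light chain of pre-B cells, was at 502 to 686 CPM in proBpreB flox/flox and 304 to 826 CPM in proBpreB flox/WT libraries, and at 16.6 to 32.2 and 5.35 to 11.1 CPM in mature flox/flox and flox/WT libraries. Fcer2a (CD23), a marker of mature B cells, was at 1489 to 1767 CPM in mature flox/flox and 1576 to 1845 CPM in mature flox/WT libraries, and at 3.37 to 7.26 and 7.47 to 19.3 CPM in proBpreB.

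The genotype difference of the replication genes depended on the population. In immature B cells 39 of the 44 genes were lower in flox/flox cells and 0 were higher, with a median log2 fold change of -1.02, where the median of all genes tested was 0.00 and 10.5% of them were called lower. For 38 of the 44 every flox/flox library lay below every flox/WT library, as for 11.5% of all genes tested. In mature B cells 18 of the 44 were higher in flox/flox and 1 was lower, with a median of 0.32, where 9.69% of all genes were called higher and 6.62% lower, and for 11 of the 44, 10 of them called and Rfc3 not, every flox/flox library lay above every flox/WT library, as for 9.01% of all genes. In proBpreB cells 1 gene was called, where 6.13% of all genes were called in either direction. In bulk libraries, fewer cells of a type and less RNA per cell cannot be told apart.

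**Figure D1:**
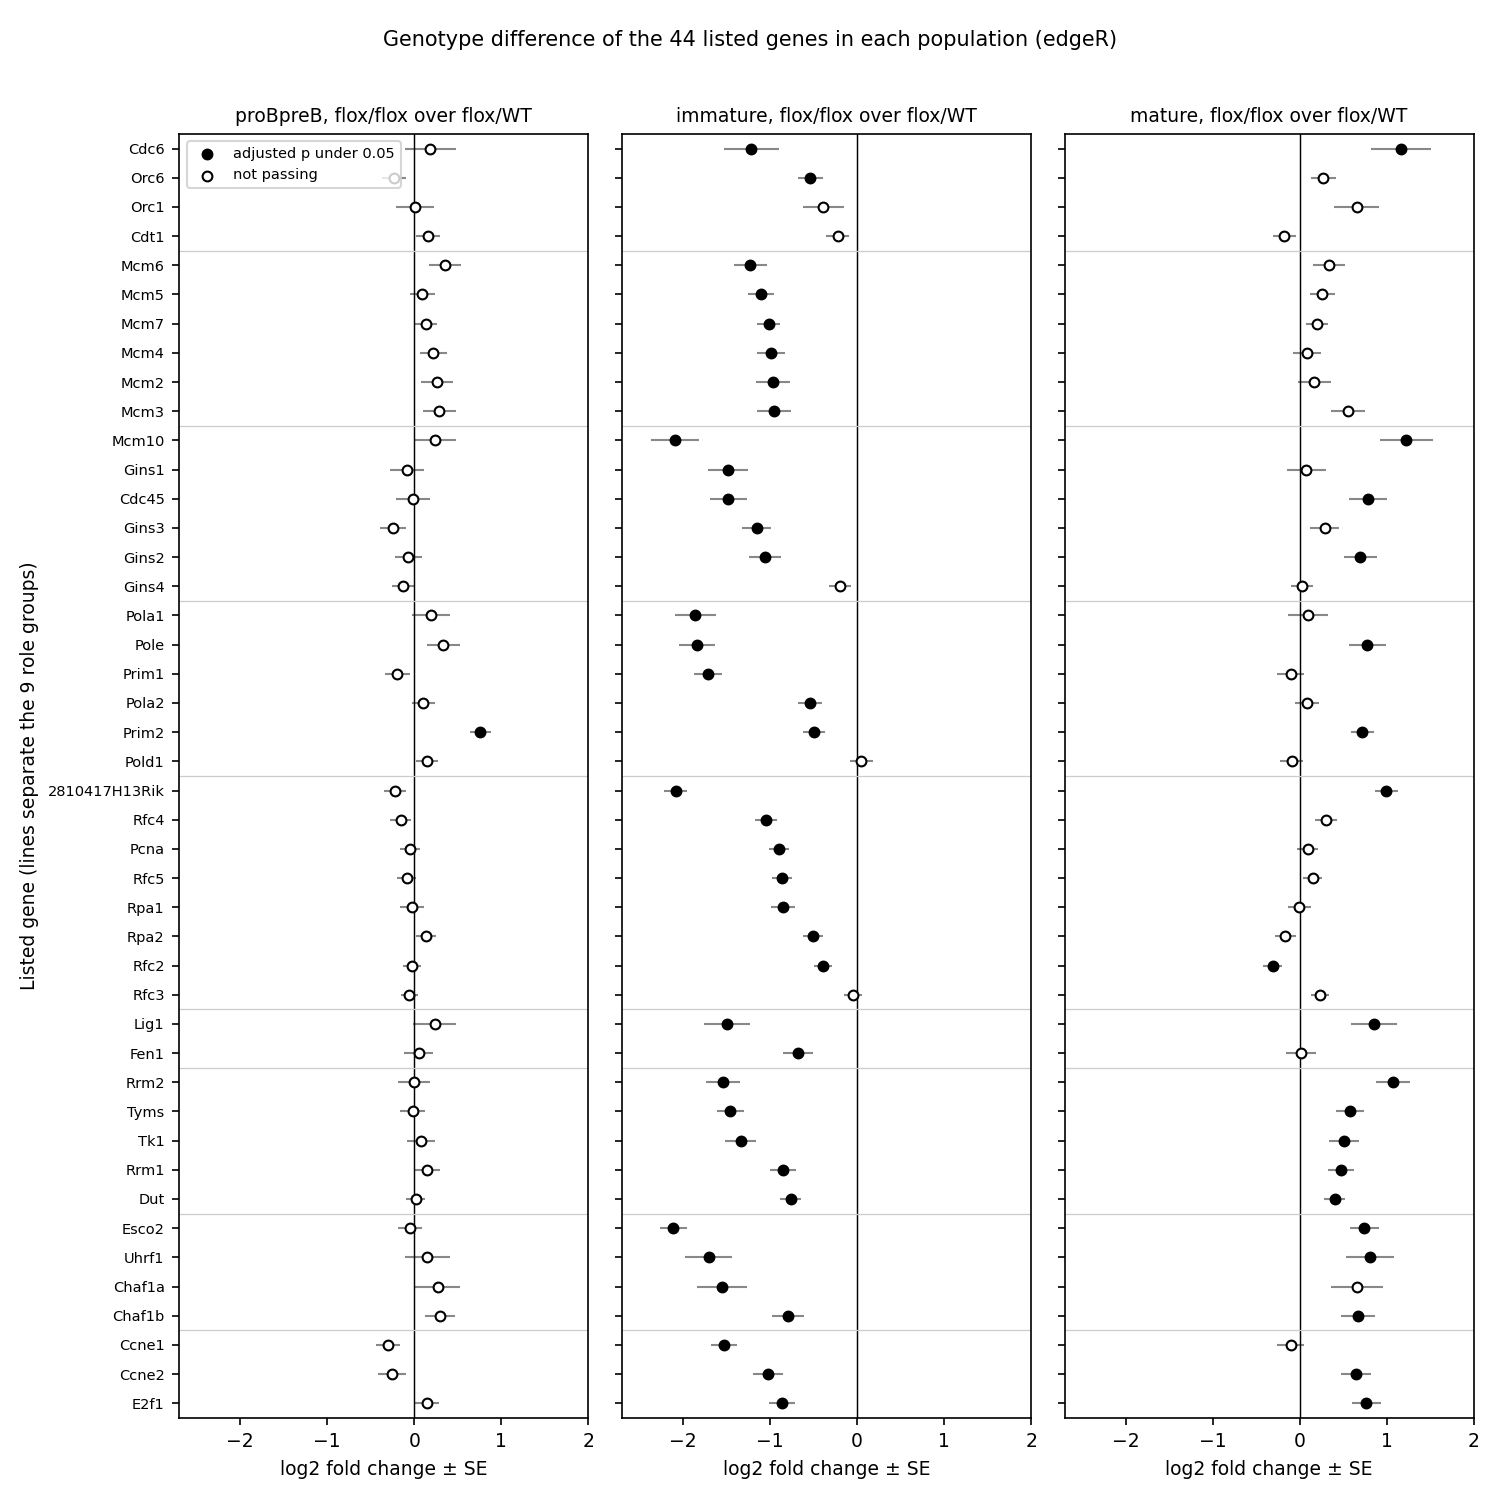
Log2 fold change (flox/flox over flox/WT) with its SE for each of the 44 listed genes, in proBpreB, immature and mature cells from left to right, 4 libraries a group. Filled points passed the test (adjusted p under 0.05). The filled points of immature cells all lie left of 0 (39 genes), 18 of the 19 of mature cells lie right of it, and Prim2 is the only filled point of proBpreB.

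E2F factors are known to act on the promoters of many S phase genes. The start sites of 3 genes called in immature cells are shown, from RefSeq on GRCm38.p6. Each runs from 250 bases before to 50 bases after the start and is written 5′ to 3′ on the gene's strand. From each of the MCM2-7, clamp and nucleotide groups, the gene called in immature cells with the most matches to an E2F-type motif is shown, and among genes with equal numbers the one with the larger change. Capitals mark matches, on either strand, to TTTCCCGC, TTTCGCGC, TTTGCCGC or TTTGGCGC. The windows lie at chr1:128359656-128359955 (minus strand) for Mcm6, chr9:65890073-65890372 (plus strand) for Pclaf, listed as 2810417H13Rik in the count table, and chr12:24708004-24708303 (plus strand) for Rrm2.
Mcm6: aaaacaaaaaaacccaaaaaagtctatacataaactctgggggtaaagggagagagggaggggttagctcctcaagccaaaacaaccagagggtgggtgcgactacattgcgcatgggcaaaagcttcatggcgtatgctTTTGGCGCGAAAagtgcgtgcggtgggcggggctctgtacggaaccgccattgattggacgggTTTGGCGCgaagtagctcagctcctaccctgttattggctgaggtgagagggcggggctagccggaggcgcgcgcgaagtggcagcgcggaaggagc
Pclaf: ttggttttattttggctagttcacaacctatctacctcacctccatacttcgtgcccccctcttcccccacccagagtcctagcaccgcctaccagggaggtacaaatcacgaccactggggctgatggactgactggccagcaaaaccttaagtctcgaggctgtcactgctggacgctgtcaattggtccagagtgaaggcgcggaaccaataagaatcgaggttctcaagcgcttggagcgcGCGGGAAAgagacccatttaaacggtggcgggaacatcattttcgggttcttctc
Rrm2: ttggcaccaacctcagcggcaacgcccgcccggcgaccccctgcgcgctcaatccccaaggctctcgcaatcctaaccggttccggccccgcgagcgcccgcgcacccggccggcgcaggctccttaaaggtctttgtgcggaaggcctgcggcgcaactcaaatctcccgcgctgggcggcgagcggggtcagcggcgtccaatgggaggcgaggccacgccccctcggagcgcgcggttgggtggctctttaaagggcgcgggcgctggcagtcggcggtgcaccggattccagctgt
Mcm6 held 3 matches, 2 of them overlapping on opposite strands, Pclaf held 1, and Rrm2 held 0, as did the other nucleotide genes. RefSeq's table had 40 promoters for 35 of the 44 genes, and 14 of the 40 (35%) held at least 1 match, against 3.83% of 12298 promoters of the genes tested and 2.26% of all 32851 promoters. A CCAAT box was in 57.5% of the 40 promoters and in 38% of those of the genes tested, and TTTGAA, the core of the cell cycle homology region of many mitotic promoters, in 10% and 12.3%. Matches were also found in genes not called in immature cells, with 1 each in Orc1, Cdt1 and Pold1 and 2 in Rfc3, a clamp loader gene. Gins4, also not called, had no promoter in RefSeq's table. A match describes these letters in this window, and factor binding was not measured.

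Of the 4 origin licensing genes 2 fell in immature cells. Cdc6 (chr11:98907709-98923942, plus strand), which loads the helicase, had 19.2, 14.8, 18.5 and 16.9 CPM in immature flox/flox libraries, against 42.7, 37.5, 41.1 and 39.8 CPM in flox/WT libraries. The groups did not overlap, and Cdc6 was 2.32-fold lower in flox/flox (log2 -1.21 ± 0.32, adjusted p 0.0079). Orc6, a subunit of the origin recognition complex, was also lower, with a log2 fold change of -0.54 ± 0.15. Orc1, the largest subunit, had 4.93, 6.84, 9.66 and 8.53 CPM in immature flox/flox and 7.70, 11.1, 8.16 and 12.3 CPM in flox/WT libraries, which overlap (log2 -0.39 ± 0.24, adjusted p 0.27). Cdt1, the partner of Cdc6 in loading, had 53.0, 59.3, 55.6 and 58.6 CPM in flox/flox and 71.5, 71.0, 56.2 and 65.4 CPM in flox/WT libraries, which overlap as well (log2 -0.22 ± 0.13, adjusted p 0.26).

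All 6 subunits of the MCM2-7 helicase ring fell, and by like amounts, with log2 fold changes between -1.23 and -0.95. Mcm6 (chr1:128331575-128359705, minus strand) had 183, 130.2, 195 and 179 CPM in immature flox/flox libraries, against 398, 397, 399 and 415 CPM in flox/WT libraries. It was 2.34-fold lower in flox/flox (log2 -1.23 ± 0.19, adjusted p 2.0e-05). The smallest difference was that of Mcm3, which averaged 132 ± 17.9 CPM in immature flox/flox cells and 255 ± 18.5 CPM in flox/WT cells (SD, n = 4 each). Summed over the 6 subunits the level was 661 to 847 CPM in immature flox/flox and 1552 to 1702 CPM in flox/WT libraries.

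Of the 6 genes that activate the helicase, 5 fell. Mcm10 (chr2:4990724-5012791, minus strand), which acts when the loaded helicase is switched on, had 6.00, 3.63, 11.8 and 11.0 CPM in immature flox/flox libraries, against 27.0, 33.9, 41.1 and 37.5 CPM in flox/WT libraries. Its lowest flox/WT library was more than 2 times its highest flox/flox library, and the difference was 4.26-fold (log2 -2.09 ± 0.28, adjusted p 2.4e-06). Cdc45, which joins MCM2-7 and GINS in the active helicase, fell, with a log2 fold change of -1.48 ± 0.21. The GINS complex did not move as a unit. Gins1, Gins2 and Gins3 had log2 fold changes of -1.48, -1.06 and -1.15, all called, whereas Gins4 had 47.0, 51.2, 43.9 and 47.6 CPM in flox/flox and 67.9, 48.1, 47.4 and 53.4 CPM in flox/WT libraries, which overlap (log2 -0.19 ± 0.13, adjusted p 0.31). Of the 4097 exon bases of Gins2, 2758 are shared with Gse1 on the other strand, and use of strand in counting is not given, so reads of the 2 genes may be mixed there.

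Among the polymerases and primase 5 of 6 genes fell, and the range was wide. Pola1 (chrX:93304766-93632387, minus strand), the catalytic subunit of polymerase alpha that extends the RNA primer, had 13.9, 21.3, 29.9 and 24.2 CPM in immature flox/flox libraries, against 95.9, 61.3, 88.8 and 78.4 CPM in flox/WT libraries. That is 3.62-fold lower in flox/flox (log2 -1.86 ± 0.23, adjusted p 1.1e-06), with no overlap. Pole, the catalytic subunit of the leading-strand polymerase epsilon, and Prim1, the catalytic primase subunit, fell, with log2 fold changes of -1.84 ± 0.21 and -1.71 ± 0.16. The second subunits differed less, with -0.54 ± 0.14 for Pola2 and -0.50 ± 0.13 for Prim2, both called. Pold1, the catalytic subunit of polymerase delta, had 363.3, 423, 397 and 397 CPM in immature flox/flox libraries, against 404, 393, 329 and 402 CPM in flox/WT libraries. These values overlap, and Pold1 was the only gene of the 44 with a positive estimate in immature cells (log2 0.05 ± 0.13, adjusted p 0.83).

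The clamp, clamp loader and single-strand binding genes fell in 7 of 8 cases. Pclaf (chr9:65890323-65903551, plus strand), which binds the clamp, had 59.2, 64.9, 54.5 and 77.4 CPM in immature flox/flox libraries, against 274, 256, 286 and 267 CPM in flox/WT libraries. The groups lay far apart, with a 4.23-fold lower level in flox/flox (log2 -2.08 ± 0.13, adjusted p 4.8e-13), the smallest adjusted p of the 44 in this comparison. Pcna, the sliding clamp itself, averaged 99.3 ± 10.0 CPM in immature flox/flox cells and 185 ± 22.2 CPM in flox/WT cells (SD, n = 4 each), a log2 of -0.90 ± 0.12. Among subunits of the clamp loader the log2 fold change was -1.05 for Rfc4, -0.86 for Rfc5 and -0.39 for Rfc2, all called. Rfc3, the remaining subunit listed, had 31.6, 40.9, 35.8 and 34.1 CPM in flox/flox and 38.1, 36.8, 38.5 and 33.0 CPM in flox/WT libraries, which overlap (log2 -0.04 ± 0.10, adjusted p 0.83). Rpa1 and Rpa2, which coat single-stranded DNA, fell, with log2 fold changes of -0.85 ± 0.14 and -0.51 ± 0.12.

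**Figure D2:**
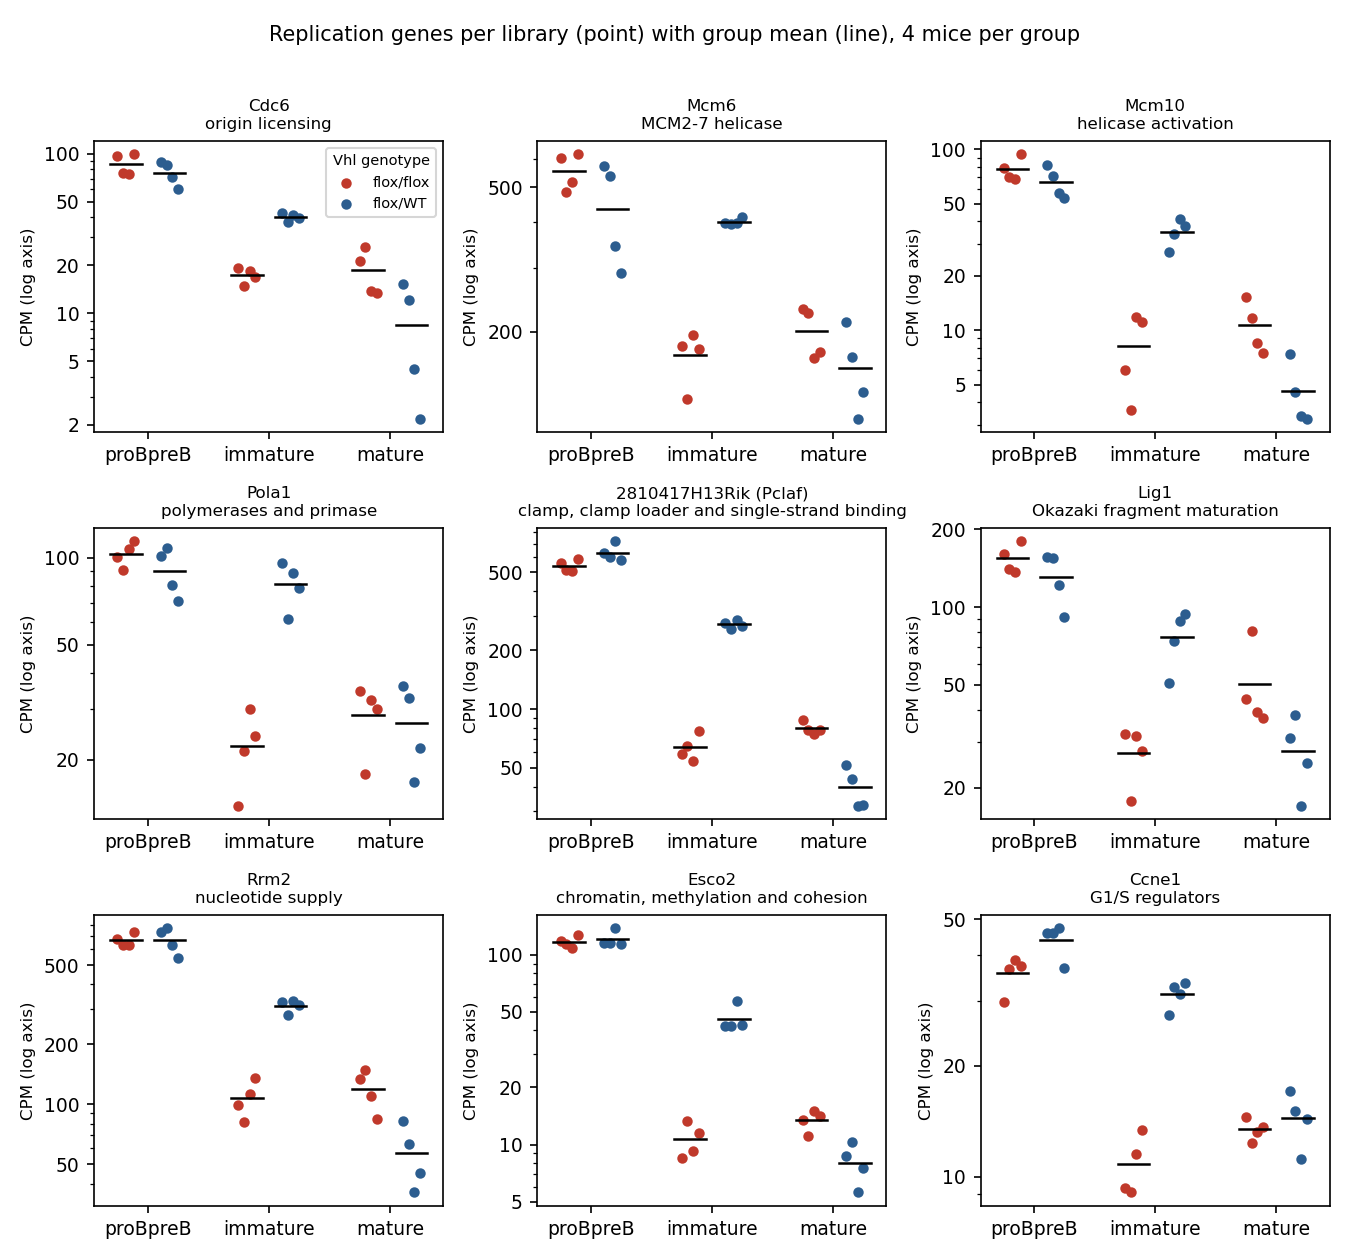
CPM on a log axis in each library (points) with the group mean (line) for the called gene with the largest change of each role group in immature cells, flox/flox in red and flox/WT in blue, 4 mice a group. In immature cells all 9 genes have their red points below their blue points, and in mature cells Mcm10, Pclaf, Rrm2 and Esco2 have them above.

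Both genes of Okazaki fragment maturation fell. Lig1 (chr7:13277175-13311426, plus strand), the ligase that seals the fragments, had 32.2, 17.7, 31.6 and 27.7 CPM in immature flox/flox libraries, against 50.8, 73.7, 88.6 and 93.9 CPM in flox/WT libraries. The flox/WT values were spread widely and the groups did not overlap (log2 -1.49 ± 0.26, adjusted p 1.8e-04). Fen1, the nuclease that trims their flaps, fell, with a log2 fold change of -0.68 ± 0.17, but 2039 of its 2422 exon bases are shared with Gm10143 and Tmem258 on the other strand.

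All 5 genes of nucleotide supply fell. Rrm2 (chr12:24708254-24714146, plus strand), the S phase small subunit of ribonucleotide reductase, had 99.8, 81.1, 113 and 136 CPM in immature flox/flox libraries, against 328, 279.6, 329 and 315 CPM in flox/WT libraries. It was 2.91-fold lower in flox/flox (log2 -1.54 ± 0.19, adjusted p 1.0e-06). Tyms (thymidylate synthase) and Tk1 (thymidine kinase) followed with log2 values of -1.45 ± 0.16 and -1.34 ± 0.18. Rrm1, the large subunit of ribonucleotide reductase, and Dut, which removes dUTP, differed less, with -0.85 ± 0.15 and -0.76 ± 0.12.

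The 4 genes of chromatin, methylation and cohesion all fell, with the lowest median of the role groups (-1.63). Esco2 (chr14:65819027-65833969, minus strand), which acetylates cohesin during S phase, had 8.53, 13.4, 9.30 and 11.5 CPM in immature flox/flox libraries, against 41.9, 42.0, 57.2 and 42.7 CPM in flox/WT libraries. Its 4.31-fold lower level was the largest difference of the 44 genes (log2 -2.11 ± 0.16, adjusted p 2.5e-11). Uhrf1, which brings the maintenance methyltransferase to new DNA, averaged 66.3 ± 8.43 CPM in immature flox/flox cells and 216 ± 33.1 CPM in flox/WT cells (SD, n = 4 each). Chaf1a and Chaf1b, subunits of the histone chaperone CAF-1, fell, with log2 fold changes of -1.55 ± 0.28 and -0.79 ± 0.19, and 4648 of the 8854 exon bases of Chaf1a are shared with Ubxn6 on the other strand.

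The 3 regulators of S phase entry fell too. Ccne1 (chr7:38097984-38107490, minus strand), a cyclin E that activates Cdk2, had 9.33, 9.07, 11.6 and 13.4 CPM in immature flox/flox libraries, against 27.5, 32.6, 31.4 and 33.6 CPM in flox/WT libraries. The difference was 2.88-fold (log2 -1.53 ± 0.15, adjusted p 7.9e-09) without overlap. Ccne2, the other cyclin E, and E2f1, a transcription factor of S phase genes, fell, with log2 fold changes of -1.02 ± 0.17 and -0.87 ± 0.15.

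Some markers of other cells moved with genotype in the same immature libraries. Of the 12850 genes tested, 2656 were called in these cells in either direction, and 10.5% of all genes were called lower. Counts of 1 to 3 genes in a list are too few to set against that. Of 17 erythroid genes, 16 of them tested, 8 were higher in flox/flox and 0 lower, and the summed level was 10281 to 19050.0 CPM in flox/flox and 2500.3 to 8032 CPM in flox/WT libraries. Of 12 neutrophil and monocyte genes 3 were higher and 0 lower, with sums of 11675 to 15643 and 7941 to 9384 CPM. Of 10 mature B genes 6 were lower and 0 higher, with sums of 8628 to 9173 and 10384 to 12803 CPM, while 4 B lineage genes (Cd79a, Cd79b, Pax5, Ebf1), of which 0 were called, summed to 5551 to 6838 and 5117 to 6224 CPM, which overlap. Of 11 pro-B and pre-B genes 3 were higher and 2 lower, with sums of 256 to 321 CPM in flox/flox and 223 to 292 CPM in flox/WT libraries. Of 7 natural killer cell genes 2 were higher and 0 lower, with sums of 30.2 to 41.7 and 16.1 to 24.9 CPM, and Eomes was at 0.119 to 0.400 and 0.00 to 0.508 CPM. Of 6 plasma cell genes, 5 of them tested, 1 was higher and 2 were lower, with sums of 773 to 851 and 598 to 751 CPM, and Tnfrsf17, which marks plasma cells, had 0 counts in the 4 immature flox/flox libraries. Of 6 T cell genes, 5 of them tested, 0 were called in any population. The part of these shifts in the fall of the replication genes was not tested.

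In mature B cells the genes that differed were nearly all higher in flox/flox, and the median difference over the 44 genes was smaller than in immature cells. All 5 nucleotide genes, 3 of 6 genes of helicase activation (Mcm10, Cdc45, Gins2), 3 of 4 of chromatin and cohesion (Esco2, Uhrf1, Chaf1b) and 2 of 3 regulators (Ccne2, E2f1) rose, together with Cdc6, Pole, Prim2, Pclaf and Lig1. None of the 6 MCM2-7 genes was called in the main fit, with log2 fold changes of 0.08 to 0.55 and unadjusted p under 0.05 for 1 of them. Mcm10 had 15.3, 11.6, 8.45 and 7.46 CPM in mature flox/flox libraries, against 7.36, 4.53, 3.36 and 3.24 CPM in flox/WT libraries, which do not overlap (log2 1.22 ± 0.30, adjusted p 0.0060). Pclaf had 88.3, 78.6, 74.4 and 77.9 CPM in mature flox/flox libraries, against 51.9, 44.02, 32.1 and 32.2 CPM in flox/WT libraries, again without overlap (log2 1.00 ± 0.13, adjusted p 2.1e-06). Rrm2 had 134, 148, 111 and 84.6 CPM in mature flox/flox libraries, against 82.6, 63.1, 36.1 and 44.9 CPM in flox/WT libraries, and the lowest flox/flox library lay just above the highest flox/WT library (log2 1.08 ± 0.19, adjusted p 2.6e-04). Esco2 had 13.4, 11.1, 15.0 and 14.2 CPM in mature flox/flox libraries, against 8.68, 10.3, 5.60 and 7.52 CPM in flox/WT libraries (log2 0.74 ± 0.17, adjusted p 0.0023), with no overlap either.

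For Cdc6 and Lig1 the mature groups overlapped. Cdc6 had 21.2, 26.2, 13.8 and 13.4 CPM in mature flox/flox libraries, against 15.2, 12.1, 4.48 and 2.19 CPM in flox/WT libraries, a log2 of 1.16 ± 0.34 (adjusted p 0.021). Lig1 had 44.1, 80.5, 39.2 and 37.0 CPM in mature flox/flox libraries, against 31.1, 38.1, 17.0 and 24.9 CPM in flox/WT libraries. Its log2 of 0.86 ± 0.26 (adjusted p 0.027) fell to 0.53 with an adjusted p of 0.137 without flox/flox replicate 2. The Lig1 call was also lost without flox/WT replicate 3 or 4, with no low-count filter, and in a fit of only the mature libraries. The other leading genes were not called here. Mcm6 had 231, 226, 169 and 176 CPM in mature flox/flox libraries, against 213, 171, 115 and 136 CPM in flox/WT libraries (log2 0.34 ± 0.19, adjusted p 0.24). Pola1 had 34.5, 17.8, 32.1 and 29.9 CPM in mature flox/flox libraries, against 36.1, 32.6, 16.7 and 21.9 CPM in flox/WT libraries (log2 0.09 ± 0.23, adjusted p 0.83). Ccne1, unlike Ccne2, had a negative estimate, with 14.5, 12.4, 13.2 and 13.7 CPM in mature flox/flox libraries, against 17.1, 15.1, 11.2 and 14.4 CPM in flox/WT libraries (log2 -0.10 ± 0.15, adjusted p 0.69). Against the majority, Rfc2 was lower in mature flox/flox cells, with 104, 104, 83.3 and 109 CPM in flox/flox and 131, 115, 125 and 126 CPM in flox/WT libraries (log2 -0.31 ± 0.10, adjusted p 0.040), and 952 of its 6303 exon bases are shared with Lat2 on the other strand.

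The count of 19 in mature cells was 10 without flox/WT replicate 3, 11 without flox/WT replicate 4, 11 without flox/flox replicate 2, and 8 where only the mature libraries were fitted. Under 15 alternative settings 7 genes kept their call each time (Mcm10, Prim2, Pclaf, Rrm2, Tyms, Ccne2 and E2f1). Mcm3, not called in the main fit, was called higher with RLE size factors, the 10 CPM filter, DESeq2, limma-voom or a replicate block. It was also called without flox/WT replicate 1 and without flox/WT replicate 2. Some pro-B and pre-B genes moved with genotype in the same libraries, where 9.69% of all genes were called higher and 6.62% lower. Of 11 such genes 5 were higher in mature flox/flox and 0 lower, and their sum was 193 to 238 CPM in flox/flox and 82.9 to 118 CPM in flox/WT libraries, against 3195 to 3911 and 2976 to 4124 CPM in proBpreB. Of 7 natural killer cell genes 3 were higher and 0 lower, with sums of 55.4 to 68.0 and 24.4 to 42.1 CPM, and of the erythroid genes 2 were higher and 0 lower, with sums of 7794 to 21225 and 3819 to 10764 CPM. Of the 10 mature B genes 3 were lower and 0 higher, with sums of 16158 to 18978 and 22609 to 24691 CPM, and of the 4 B lineage genes 1 was lower and 0 were higher, with sums of 4555 to 4975 and 5388 to 6815 CPM, neither of which overlap. The part of these shifts in the higher replication genes was not tested.

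In proBpreB cells, where the 44 genes were most abundant, Prim2 was the only one called. Prim2 (chr1:33453808-33669808, minus strand), the large regulatory subunit of primase, had 94.8, 87.5, 79.3 and 96.9 CPM in proBpreB flox/flox libraries, against 54.0, 49.9994, 56.6 and 51.9 CPM in flox/WT libraries. Every flox/flox library lay above every flox/WT library, a 1.69-fold higher level (log2 0.76 ± 0.12, adjusted p 7.4e-05). In mature cells Prim2 was higher by about the same amount, with 28.8, 26.3, 26.5 and 24.4 CPM in mature flox/flox libraries, against 19.3, 15.0, 14.2 and 15.9 CPM in flox/WT libraries (log2 0.72 ± 0.13, adjusted p 2.0e-04), and in immature cells lower, with 24.0, 21.5, 29.8 and 23.2 CPM in immature flox/flox libraries, against 38.8, 38.1, 34.2 and 28.5 CPM in flox/WT libraries (log2 -0.50 ± 0.13). In immature cells the highest flox/flox value lay above the lowest flox/WT value. Its partner Prim1 had 78.5, 89.4, 73.4 and 88.9 CPM in proBpreB flox/flox and 80.0, 71.4, 129.6 and 96.97 CPM in flox/WT libraries (log2 -0.19 ± 0.15, adjusted p 0.52), and in mature cells a log2 of -0.10 ± 0.16 (adjusted p 0.71). Of the B lineage genes 2 of 4 were lower in proBpreB flox/flox and 0 higher, where 6.13% of all genes were called in either direction. Their sums were 1689 to 1832 CPM in flox/flox and 2623 to 3029.6 CPM in flox/WT libraries. The part of these genes in the Prim2 difference was not tested.

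Leading genes of the immature comparison overlapped between genotypes in proBpreB. Cdc6 had 97.4, 75.4, 74.5 and 99.1 CPM in proBpreB flox/flox libraries, against 88.3, 85.4, 71.7 and 59.9 CPM in flox/WT libraries (log2 0.18 ± 0.29). Mcm6 had 602, 487, 517 and 616 CPM in proBpreB flox/flox libraries, against 574, 537, 344 and 289 CPM in flox/WT libraries, with the 2 highest values in flox/flox and the 2 lowest in flox/WT (log2 0.35 ± 0.18). Mcm10 had 79.2, 70.2, 68.5 and 93.7 CPM in proBpreB flox/flox libraries, against 81.9, 71.0, 57.7 and 53.9 CPM in flox/WT libraries (log2 0.24 ± 0.24). Pola1 and Lig1 differed by log2 values of 0.19 ± 0.22 and 0.23 ± 0.25. Pclaf had 555, 512, 505 and 586 CPM in proBpreB flox/flox libraries, against 626, 596, 719.6 and 575 CPM in flox/WT libraries, where the highest flox/flox value exceeds the lowest flox/WT value (log2 -0.22 ± 0.12). Rrm2 had 675, 634, 632 and 734 CPM in proBpreB flox/flox libraries, against 737, 767, 632 and 546 CPM in flox/WT libraries (log2 -0.00 ± 0.19). Esco2 and Ccne1 differed by -0.05 ± 0.14 and -0.30 ± 0.14, and the adjusted p of these 9 genes ran from 0.24 for Ccne1 to 0.99 for Rrm2.

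The change of the genotype difference between populations was tested itself. The genotype effect in immature cells lay below that in proBpreB for 37 of the 44 genes and above it for 0, with a median difference of -1.17 on the log2 scale, where 6.14% of all genes were called lower. The 7 genes not called were Orc1, Orc6, Cdt1, Gins4, Pold1, Rfc2 and Rfc3. Mcm10 had the largest difference (-2.33 ± 0.36, adjusted p 1.1e-04), followed by Pole (-2.17 ± 0.29), Esco2 (-2.06 ± 0.21) and Pola1 (-2.05 ± 0.32). Cdc6 (-1.40 ± 0.43, adjusted p 0.039) lost its call under 13 of 23 alternatives, Fen1 under 15, Ccne2 under 8 and Pola2 under 7, and the other 33 kept theirs. Between mature and immature cells the genotype effect was higher in mature cells for 36 genes and lower for 0, with a median of 1.43, where 5.51% of all genes were called higher, and the largest value was again that of Mcm10 (3.32 ± 0.41, adjusted p 2.8e-06). These differences share the immature libraries.

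Between mature and proBpreB cells, 4 of the 44 genes had a higher genotype effect in mature cells and 0 a lower, where 2.27% of all genes were called higher. They were Pclaf (1.22 ± 0.18, adjusted p 1.4e-04), Rrm2 (1.08 ± 0.27, adjusted p 0.022), Ccne2 (0.91 ± 0.23, adjusted p 0.026) and Esco2 (0.79 ± 0.22, adjusted p 0.040). Pclaf kept its call under all 23 alternatives, and Esco2 had an adjusted p of 0.057 with the mouse as a block. Esco2 also lost its call without proBpreB flox/flox replicate 1, 2 or 3, or proBpreB flox/WT replicate 3. The same held without mature flox/flox replicate 1, 3 or 4, or mature flox/WT replicate 3 or 4. The count was 1 without mature flox/WT replicate 4, and 2 without mature flox/WT replicate 3, mature flox/flox replicate 1, mature flox/flox replicate 3 or proBpreB flox/WT replicate 3.

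For most of the genes proBpreB cells held the highest level. The mean was highest in a proBpreB group for 40 of the 44 genes, the exceptions being Cdt1, Fen1, Rfc2 and Rpa1. Of these, Fen1 and Rfc2 share exon bases with genes on the other strand. It was lowest in mature flox/WT cells for 29 genes and in immature flox/flox cells for 12, among them Pcna, Mcm4, Pola1, Prim1 and Lig1. Summed over the 44 genes, proBpreB libraries held 7704 to 9288 CPM in flox/flox and 6579 to 8955 CPM in flox/WT, immature libraries 2599.5 to 3001 and 5142 to 5486 CPM, and mature libraries 2592 to 3375 and 2172 to 2977 CPM. The flox/flox and flox/WT sums overlap in proBpreB and in mature cells and do not in immature cells, and the sums of immature flox/flox libraries overlap those of both mature groups.

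**Figure D3:**
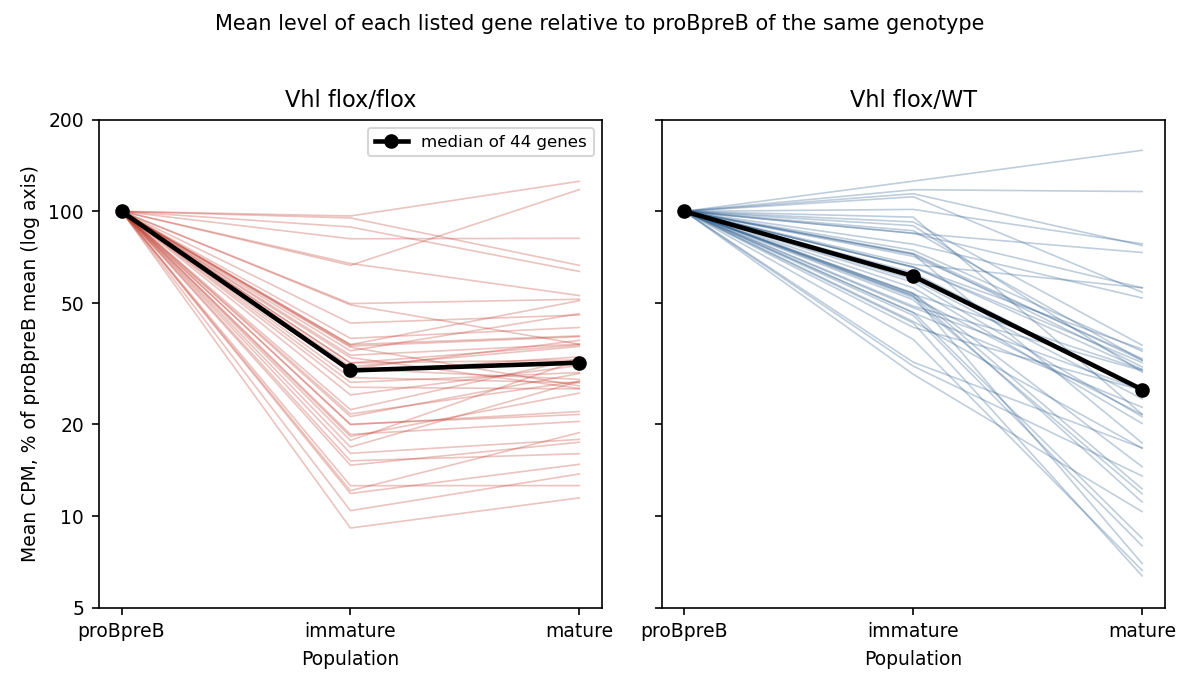
Mean CPM of each of the 44 genes (thin lines) and their median (black) in percent of the proBpreB mean of the same genotype, on a log axis, flox/flox left and flox/WT right, 4 libraries a group. The flox/flox median is at 30.0% in immature and 31.9% in mature cells, and the flox/WT median at 61.3% and 26.0%.

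The stage at which the genes fell differed between the genotypes, which is the same contrast as the difference of genotype effects tested above. In flox/flox mice 41 of the 44 were lower in immature than in proBpreB cells and 0 higher (27.2% of all genes were called lower), with a median log2 fold change of -1.73. Esco2 fell most (-3.45 ± 0.16, adjusted p 2.4e-16), then Mcm10 (-3.25 ± 0.28) and Pclaf (-3.08 ± 0.14). The genes not called were Cdt1 (-0.05 ± 0.13), Pold1 (-0.07 ± 0.13) and Rfc2 (-0.17 ± 0.10). In flox/WT mice 32 genes were lower and 1 was higher at that step (25.4% of all genes were called lower), with a median of -0.71. Here Gins2 (-1.78 ± 0.17) and Ccne2 (-1.69 ± 0.16) fell most, while 4 of the 6 MCM2-7 genes (Mcm2, Mcm3, Mcm4 and Mcm6), Pola1, Pole, Fen1, Rpa1, Rfc2, Gins4 and Pold1 were not called. Cdt1, the gene called higher (0.33 ± 0.13, adjusted p 0.043), lost its call under 9 of 15 alternatives, with an adjusted p of up to 0.151.

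From immature to mature cells most of the genes fell in flox/WT mice and few changed in flox/flox mice. In flox/WT mice 40 of the 44 genes were lower in mature than in immature cells and 0 higher (17.1% of all genes were called lower), with a median of -1.21. Mcm10 (-2.93 ± 0.29), Pclaf (-2.76 ± 0.14), Esco2 (-2.52 ± 0.16) and Uhrf1 (-2.52 ± 0.28) fell most, and Cdt1 (0.34 ± 0.13), Gins4 (-0.21 ± 0.13), Rpa1 (-0.02 ± 0.14) and Rpa2 (-0.25 ± 0.12) were not called. In flox/flox mice 8 genes were higher and 4 lower at that step (12.9% and 13.6% of all genes), with a median of 0.14, so the counts lie near those of all genes. The higher genes were Lig1 (0.88 ± 0.26), Rpa1 (0.83 ± 0.14), Prim1 (0.71 ± 0.16), Gins1, Tk1, Mcm4, Ccne2 and Cdt1, and the lower ones Pold1 (-0.52 ± 0.13), Rfc2, Rfc3 and E2f1. That count of 12 was 6 without immature flox/flox replicate 2 and 7 without mature flox/flox replicate 1, and Prim1, Pold1, Rfc2, Rfc3 and Rpa1 kept their call under all 15 alternatives. The steps of a genotype share its immature libraries.

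Per kilobase of exon, the most abundant of the 44 genes in proBpreB flox/flox cells were Rrm2 (241 ± 17.3 CPM per kilobase, SD, n = 4), Pcna (139 ± 13.2) and Uhrf1 (124 ± 15.1), and the least abundant Pole (6.73 ± 1.05) and Orc1 (6.50 ± 0.762). In immature flox/flox cells Pold1 (81.3 ± 5.03 CPM per kilobase) and Fen1 (58.5 ± 4.08) stood highest and Mcm10 lowest (1.06 ± 0.513), whereas Rrm2 (113 ± 8.31) stood highest in immature flox/WT cells. The MCM2-7 subunits stood in the order Mcm6, Mcm3, Mcm5, Mcm7, Mcm4, Mcm2 in both immature groups, with 36.8 ± 6.13 for Mcm6 and 16.3 ± 2.15 for Mcm2 in flox/flox, against 86.2 ± 1.82 and 31.8 ± 3.00 CPM per kilobase in flox/WT. Lengths are merged exons of GENCODE vM21, so an order among close neighbours depends on the isoforms in use. As 2039 of the 2422 exon bases of Fen1 are shared with genes on the other strand, its level may include their reads.

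Many of the genes shared part of their spread between the mice of a group, to an extent that differed between groups. In proBpreB flox/flox, replicate 4 was the highest library for 30 of the 44 genes and replicate 3 the lowest for 30. In proBpreB flox/WT, replicate 4 was the lowest for 26, and in mature flox/WT replicate 1 was the highest for 34 and replicate 3 the lowest for 25. In mature flox/flox, replicate 2 was the highest for 27. In immature flox/flox, replicate 4 was the highest for 15 and replicate 2 the lowest for 23. In immature flox/WT, replicate 1 was the highest for 20 and replicate 2 the lowest for 15. After removal of group means, log2 CPM of Rrm2 (r = 0.935) and Mcm5 (r = 0.928) followed the mean of the other listed genes most closely over the 24 libraries, and that of Orc6 (-0.011), Orc1 (-0.022), Gins4 (-0.054) and Rfc3 (-0.087) did not follow it, a description of libraries that share depth and mice. Gins1, Gins2, Esco2, Tk1, Ccne2, Gins3 and Prim1 followed the mean of the other listed genes weakly, at r of 0.086 to 0.281. Orc1, Gins4 and Rfc3 are also among the 5 genes not called in immature cells.

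Other genes of replication, a list of 53 outside the 44, were mostly lower in immature flox/flox cells and had few calls in the other populations. In immature cells 34 of the 53 were lower in flox/flox and 1 was higher (10.5% of all genes were called lower), with a median of -0.70. The 3 with the smallest adjusted p were Wdhd1, which ties polymerase alpha to the helicase, Dbf4, the activating subunit of the Cdc7 kinase, and Ticrr, which acts in origin firing. Wdhd1 was at 22.0 to 26.0 CPM in flox/flox and 50.3 to 62.7 CPM in flox/WT libraries (log2 -1.24 ± 0.12, adjusted p 6.7e-09). Dbf4 was at 8.65 to 14.2 CPM, against 22.2 to 40.4 CPM (log2 -1.61 ± 0.17), and Ticrr at 3.64 to 7.99 CPM, against 24.4 to 27.9 CPM (log2 -2.32 ± 0.25). The gene that was higher was Rrm2b, a small subunit of ribonucleotide reductase that serves outside S phase, named after its value was seen. It was at 87.2 to 139 CPM in immature flox/flox and 54.4 to 73.6 CPM in flox/WT libraries (log2 0.80 ± 0.14, adjusted p 8.5e-05), where its S phase counterpart Rrm2 was lower. In mature cells 8 of the 53 were higher and 4 lower (median 0.15), where 9.69% and 6.62% of all genes were called. In proBpreB 0 were higher and 4 lower (median 0.01), where 6.13% of all genes were called in either direction, so the counts in these populations lie near those of all genes.

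Genes of mitosis were lower in immature flox/flox cells, where 10.5% of all genes were called lower, and most were called higher in mature flox/flox cells. All 20 of the listed mitosis genes were lower in immature flox/flox than in flox/WT cells, with a median of -1.80 and sums of 466 to 693 CPM in flox/flox and 1755 to 2767 CPM in flox/WT libraries. Mki67, the Ki-67 antigen of cycling cells, was at 15.5 to 45.2 CPM in flox/flox and 64.9 to 352 CPM in flox/WT (log2 -2.86 ± 0.50, adjusted p 3.0e-04). In mature cells 13 of the 20 were called higher in flox/flox and 0 lower, where 9.69% of all genes were called higher. The median was 0.76, with sums of 522 to 738 CPM in flox/flox and 226 to 521 CPM in flox/WT libraries. In proBpreB 0 were called, where 6.13% of all genes were called in either direction. Among immature flox/WT libraries the mitosis sum was 1755 and 1956 CPM in replicates 1 and 2 and 2767 and 2689 CPM in replicates 3 and 4, while the sum of the 44 replication genes was 5435, 5142, 5218 and 5486 CPM in the same mice.

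**Figure D4:**
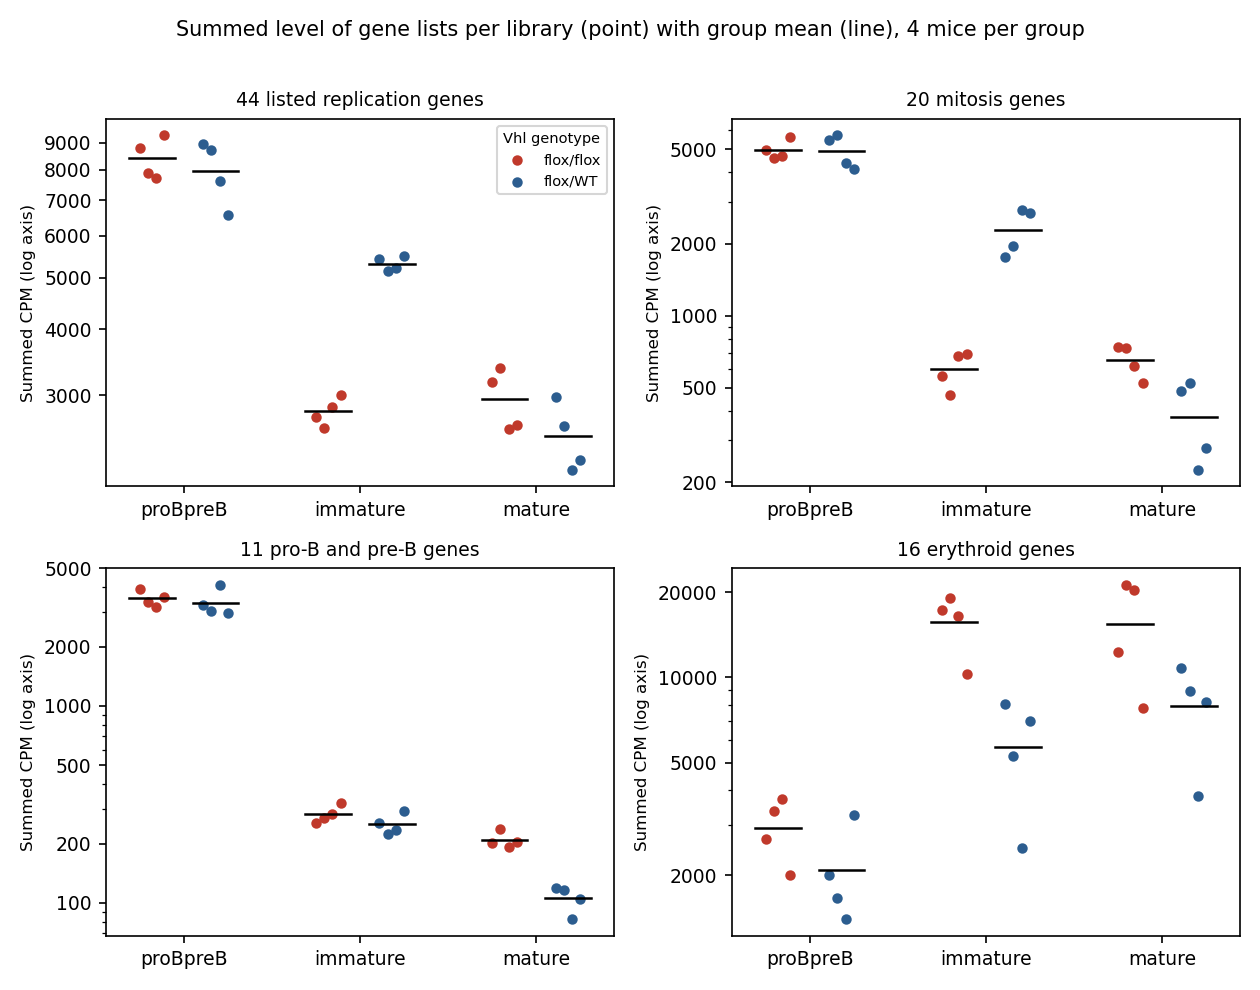
Summed CPM per library (points) with the group mean (line) on log axes for the 44 replication genes, 20 mitosis genes, 11 pro-B and pre-B genes and 16 erythroid genes, flox/flox left of flox/WT in each population, 4 mice a group. In immature cells the replication and mitosis sums are lower in every flox/flox library and the erythroid sums higher, and in mature cells the pro-B and pre-B sums are higher in every flox/flox library.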

How the data were processed

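RNA was measured in 24 libraries, 1 per mouse and sorted population, prepared, per the labels' protocols, with a SMARTer Universal Low Input RNA Kit. The authors deposited raw counts per gene symbol, and counts were used as deposited. The submitters' processing notes name the genome build mm10 and HISAT2, featureCounts, DESeq2, Trim Galore, FastQC and CASAVA. For versions, settings, annotation and strand handling, nothing is stated in the labels. Reads that overlapping or antisense genes share therefore cannot be assigned. Columns were matched to samples by the number that opens each sample title.

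The test was edgeR's quasi-likelihood test (edgeR 4.0.16, R 4.3.3), with TMM scaling, filterByExpr on the 6 groups and a robust fit. All 24 libraries entered 1 fit of 12850 genes with 18 residual degrees of freedom. Benjamini-Hochberg adjustment at 0.05 ran over these genes in each of 10 comparisons (3 of genotype, 4 of stage, 3 of genotype effects between populations). The SE of a log2 fold change was taken from the test statistic, and the script was tested on simulated data. Per library, a limit of 3 counts marks the depth floor, and it covers counting error only. Libraries of a group differed by a chi-square per degree of freedom of at least 6.08, and none was counted as a repeat.

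Levels per kilobase used exon lengths of GENCODE vM21 (GRCm38), from which exon overlaps were also taken. Promoters came from RefSeq (GRCm38.p6).

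The 3 libraries of a mouse share that animal, which pairs the stage comparisons by animal. Deviations from group means correlated at 0.016 to 0.324 between libraries of a mouse, over 0.1 in 17 of 24 pairs. The fit without the mouse as a block is the one reported, and the blocked fit is an alternative. Alternatives were RLE size factors, no filter, a filter of 10 CPM in 4 libraries, DESeq2 1.42.0, a fit of only the groups compared, limma-voom (limma 3.58.1) with the mouse as a random block, a replicate block and the removal of each library.

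The listed genes, the other gene lists and the rule for named genes were chosen with earlier results of these data known. Values in every library are given for the called gene with the largest change of each role group in immature cells and for genes that did not pass there or went against the majority, and from the other replication genes the 3 with the smallest adjusted p are named. A table of scaled counts was not used, and 1 gene of the B lineage list is not reported here.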

Additional observations from a re-analysis of the deposited data

Results flagged for a closer look

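The genotype effect differed between populations by a test of the difference itself. Immature and proBpreB cells differed for 37 of the 44 genes, and Mcm10 was furthest apart, at -2.33 on the log2 scale. Mature and immature cells differed for 36 genes, again with Mcm10 furthest apart, at 3.32. Mature and proBpreB cells differed for 4 genes, Pclaf by 1.22, Rrm2 by 1.08, Ccne2 by 0.91 and Esco2 by 0.79.

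Single libraries stood apart from the other 3 of their group in 17 of 264 groups of values, where chance alone marks about 1 in 20. The mark sets the gap to the nearest value against the range of the group, so a small gap can be marked. Mcm6 in immature flox/WT replicate 4 was at 415 CPM, against 397 to 399 CPM in the others. Lig1 in mature flox/flox replicate 2 was at 80.5 CPM, against 37.0 to 44.1 CPM. In proBpreB flox/flox, Gins2 was low in replicate 3 at 44.06 CPM and Rfc4 high in replicate 4 at 136 CPM. In proBpreB flox/WT, Esco2 was high in replicate 3 at 138 CPM and Ccne1 low in replicate 4 at 36.8 CPM. In immature flox/flox, Fen1 was low in replicate 2 at 127 CPM. In immature flox/WT, replicate 1 was high for Rpa1 at 256 CPM and for Dut at 109 CPM and low for Chaf1a at 34.6 CPM, replicate 3 was low for Pold1 at 329 CPM and high for Esco2 at 57.2 CPM, and replicate 4 was high for Mcm6 at 415 CPM. In mature flox/flox, replicate 2 was high for Gins1 at 5.60 CPM and for Lig1 at 80.5 CPM, replicate 3 low for Prim1 at 19.3 CPM and replicate 4 low for Rrm1 at 167 CPM. In mature flox/WT, Mcm2 was high in replicate 1 at 137 CPM. Rfc3 was low in replicate 3 at 21.3 CPM, against 22.8 to 23.0 CPM in the others. Without flox/flox replicate 2, Lig1 was no longer called in mature cells. Its call was also lost without flox/WT replicate 3 or 4, with no low-count filter, and in a fit of only the mature libraries.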

How the results depend on the processing

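Over the called genes of the 10 comparisons, 262 results gave 4546 values under the alternatives, of which 4358 kept their direction and call, 188 kept their direction and lost the call, and 0 reversed. The 39 calls in immature cells and the call of Prim2 in proBpreB were kept under all 15 alternatives. In mature cells 7 of 19 calls were kept under all 15, and a fit of only the mature libraries called 8 genes, all higher. Leaving out 1 library gave 10 to 21 calls in mature cells, 6 to 10 against 12 for mature against immature flox/flox cells, and 1 to 4 against 4 for the genotype effect of mature against proBpreB cells. It gave 40 to 41, 31 to 34, 39 to 41, 33 to 36 and 35 to 37 for the steps and differences with 41, 33, 40, 37 and 36 calls. With the mouse as a replicate block the stage steps called 40 and 13 genes in flox/flox and 33 and 41 in flox/WT mice, and the differences between genotype effects 37, 37 and 3. Beside Esco2, which is given with its result, the block removed the call of Gins4 at the first step in flox/flox mice and added those of Fen1 at the second step in flox/flox mice and in its genotype difference, and of Cdt1 at the second step in flox/WT mice. Libraries of the same population and replicate number but different genotype come from different mice. Their deviations correlated at -0.056 to 0.404, over 0.1 in 5 of 12 pairs. The replicate 1 pairs were at 0.404 in proBpreB, 0.302 in mature and 0.128 in immature cells, and what these libraries share was not tested. A replicate block on the numbers called 1, 39 and 20 genes in proBpreB, immature and mature cells. Among all genes, calls in proBpreB were 496 without flox/WT replicate 4 against 788, calls in mature cells 1308 in a fit of only those libraries against 2096, and calls of the genotype effect of mature against proBpreB cells 599 with DESeq2 against 393. Scaling by RLE moved the median of all genes by at most 0.041 on the log2 scale. Where a call was lost, the cause was not tested. With 4 mice a group, a missed call does not show that the genotypes had equal levels.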
